A study of Mus musculus with 29 samples.

Results

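The respiratory chain is the set of protein complexes in the inner mitochondrial membrane that passes electrons from NADH and succinate to oxygen and pumps protons, and ATP synthase uses the proton gradient to make ATP. Most of its subunits are encoded in the nucleus and imported, and a few core subunits of complexes I, III and IV and of ATP synthase are encoded by the mitochondrial genome. Activated T cells are known to build up respiratory capacity as they grow, and induced regulatory T cells are known to rely on respiration more than effector T cells do. Genes of the chain were selected as protein-coding genes whose mouse symbols start with the usual subunit prefixes (Ndufa, Ndufb, Ndufc, Ndufs, Ndufv, Uqcr, Cox4 to Cox8, Atp5, mt-Nd, mt-Co, mt-Atp and mt-Cytb) and that had at least 10 counts in at least 3 libraries. Of 103 protein-coding genes with these prefixes, among 55414 gene identifiers in all, 92 met the minimum: 85 nuclear genes and 7 mitochondrially encoded genes. The nuclear genes were 7 core subunits of complex I, 30 other subunits of complex I, 8 complex I assembly factors (Ndufaf genes), 8 subunits of complex III, 15 of complex IV and 17 of ATP synthase. Roles follow the symbols, so Ndufa4, now known as a complex IV subunit, counts among the other subunits of complex I, and Cox7a2l, a supercomplex assembly factor, among complex IV. The selection rule used symbols and the minimum, and all 92 genes also passed the filter on low counts of the test. Cox4i2, Cox6a2 and Cox7a1 met the minimum only through libraries at 72 h, and Cox4i2 and Cox7a1 only through libraries with TGF-beta (7 and 12 libraries with it, against 0 and 2 without). Their differences in those contrasts are given as a description.

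Polyadenylated RNA was sequenced from CD4+ T cells of spleens of FoxP3RFP mice (genotype C57BL/6-Foxp3tm1Flv/J), in which a red fluorescent protein reports Foxp3, the lineage factor of regulatory T cells. Every culture received anti-CD3, anti-CD28 and IL-2 in medium with only 0.5 mM glucose, and cultures differed in TGF-beta (3 ng/ml or none), lactic acid (LA, 10 mM or none) and time (24 or 72 h). Sorting at the end gave RFP+ cells (Treg) or RFP- cells (Tcon), so Tcon are the cells without reporter signal at that time and not a separately purified lineage. The 10 groups were Treg at 72 h with TGF-beta and LA, Treg at 72 h with TGF-beta, Tcon at 72 h with TGF-beta and LA, with TGF-beta, with LA and with neither, and Tcon at 24 h under the same 4 additions. Each group had 3 libraries except Tcon at 72 h with neither addition, which had 2 (replicates 1 and 2), and per the labels replicate 1 came from male and replicates 2 and 3 from female mice. The labels do not say whether replicates were separate cultures or animals beyond this, so p-values measure the spread between these libraries. Below, values per library are given in the order of replicates 1, 2 and 3, in CPM (a gene's counts scaled to the same total in every library, with TMM factors).

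The 29 libraries held 9754511 to 14315313 counts in genes, with a median of 12106958. T cell genes were high in all of them (Cd4 418.3 to 668.2 CPM, Cd3e 255.9 to 571.2 CPM), and Foxp3 ranged between 0 and 572 CPM. Markers of B cells, myeloid cells and red cells were near 0, with Cd14 and S100a8 at 0 in all 29 libraries. The summed markers of CD8 T and NK cells averaged 30.0 to 129.5 CPM by group and are given beside the results they moved with. In RNA from bulk cells, fewer cells that express a gene and less of its RNA per cell cannot be told apart.

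The 11 prefixed genes below the minimum include 6 of the 13 mitochondrially encoded ones. mt-Co2, mt-Co3, mt-Atp6, mt-Nd3 and mt-Nd4l, which encode subunits of complex IV, ATP synthase and complex I, had 0 counts in all 29 libraries, and mt-Atp8 had 1 count in total. All windows of 65 bases, the read length, were compared between the mitochondrial genes and annotated pseudogenes on chromosome 1. Between 97.887 and 99.861% of the windows of mt-Co2, mt-Co3, mt-Atp6, mt-Nd3 and mt-Nd4l occurred letter for letter in such a pseudogene. The shared share was 61.796% in mt-Nd4, 44.294% in mt-Co1 and 6.674% in mt-Nd2, and 0% in mt-Nd1, mt-Cytb, mt-Nd6 and mt-Atp8. The pseudogene copies themselves had few counts, with 7 in all libraries in Gm28437 (the copy of mt-Co3) and 2 in Gm28438 (the copy of mt-Nd3). How reads that match several places were counted is not given in the sources used here, and the part of these copies in the zeros was not tested. The zeros can therefore not be read as absent transcripts, and levels of mt-Nd4 and mt-Co1 may rest on only part of their length. Examples of windows that are the same in both places are shown here to make the copies visible, with coordinates on GRCm38, mitochondrial genome plus strand and chromosome 1 minus strand.
mt-Co3 at chrM:8607-8671 and Gm28437 at chr1:24613907-24613971: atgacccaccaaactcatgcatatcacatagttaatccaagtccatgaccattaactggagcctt
mt-Nd3 at chrM:9462-9526 and Gm28438 at chr1:24613052-24613116: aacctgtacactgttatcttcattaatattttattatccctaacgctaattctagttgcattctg

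The 5 nuclear genes below the minimum were Cox7b2, Cox8b and Cox8c, which are tissue-restricted isoforms of complex IV subunits, a second identifier of Atp5o, and Ndufa4l2. Ndufa4l2, a relative of the complex IV subunit Ndufa4 that is known as a hypoxia-responsive gene, had 18 counts over the 17 libraries at 72 h and 0 over the 12 at 24 h. Among the 85 nuclear genes, 38 shared no 65-base window with another annotated transcript and 5 shared over 25%. Those 5 were Ndufaf2 (63.6%), Atp5g2 (36.8%), Atp5o (36.7%), Ndufb6 (29.3%) and Ndufa13 (26.3%), and their counts are uncertain to that extent.

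Per kilobase of transcript, most mitochondrially encoded genes stood far above the nuclear ones. The lowest, mt-Nd6 (75.47), lay below the complex III median (77.7) and the highest genes of complex IV (195.9) and ATP synthase (399.9 CPM per kb). The 7 had 75.47 to 2213 CPM per kb averaged over all libraries (median 873.9), led by mt-Co1, a catalytic subunit of complex IV (2213 CPM per kb), mt-Nd1 (1686) and mt-Cytb, the cytochrome b of complex III (1611). The highest nuclear gene was Atp5b, the catalytic beta subunit of ATP synthase, with 399.9 CPM per kb. Medians per kb were 77.7 for complex III, 62.25 for ATP synthase, 47.75 for complex IV, 43.82 for the core and 40.9 for the other subunits of complex I. The assembly factors, which help build complex I and do not stay in it, had a median of 9.264 CPM per kb. The lowest genes were Cox4i2 (0.5227), Cox6b2 (0.8314) and Atp5l (0.8426 CPM per kb).

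Summed over the genes, the nuclear set took 0.714 to 1.22% and the mitochondrial set 0.595 to 1.58% of the gene counts of a library. The nuclear sum averaged 9622.4 ± 1250 CPM in Treg with TGF-beta and LA, and 8826.4 ± 1960 CPM in Treg with TGF-beta (SD, n = 3 each). In Tcon at 72 h it averaged 9087.6 ± 989 CPM with TGF-beta and LA, 8789.5 ± 1700 CPM with TGF-beta and 11634 ± 1320 CPM with LA (SD, n = 3 each). With neither addition it averaged 10113 ± 1790 CPM (SD, n = 2). In Tcon at 24 h the 4 group means lay between 9438.6 and 10369 CPM. The libraries of Tcon at 72 h with TGF-beta and LA (7986.2 to 9901.5 CPM) and with TGF-beta (6830.2 to 9799.7 CPM) did not overlap those with LA (10130 to 12580 CPM), and they overlapped those with neither addition.

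The mitochondrial sum was spread differently over the groups. It was highest in Tcon at 72 h with TGF-beta and LA, with 13657, 15776 and 9827.4 CPM, against 8552.6, 7758.1 and 8136.8 CPM with TGF-beta alone, and these groups did not overlap. Treg at 72 h with TGF-beta and LA had 9472.8, 7662.8 and 8304.9 CPM, against 10442, 12452 and 6099.1 CPM in Treg with TGF-beta alone, which enclosed them. It was lowest on average in Tcon at 24 h with neither addition, with 6446.1, 6110.1 and 8383.4 CPM. The ratio of the mitochondrial to the nuclear sum averaged 1.46 in Tcon at 72 h with TGF-beta and LA and lay between 0.679 and 1.16 in the other 9 group means.

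**Figure D1:**
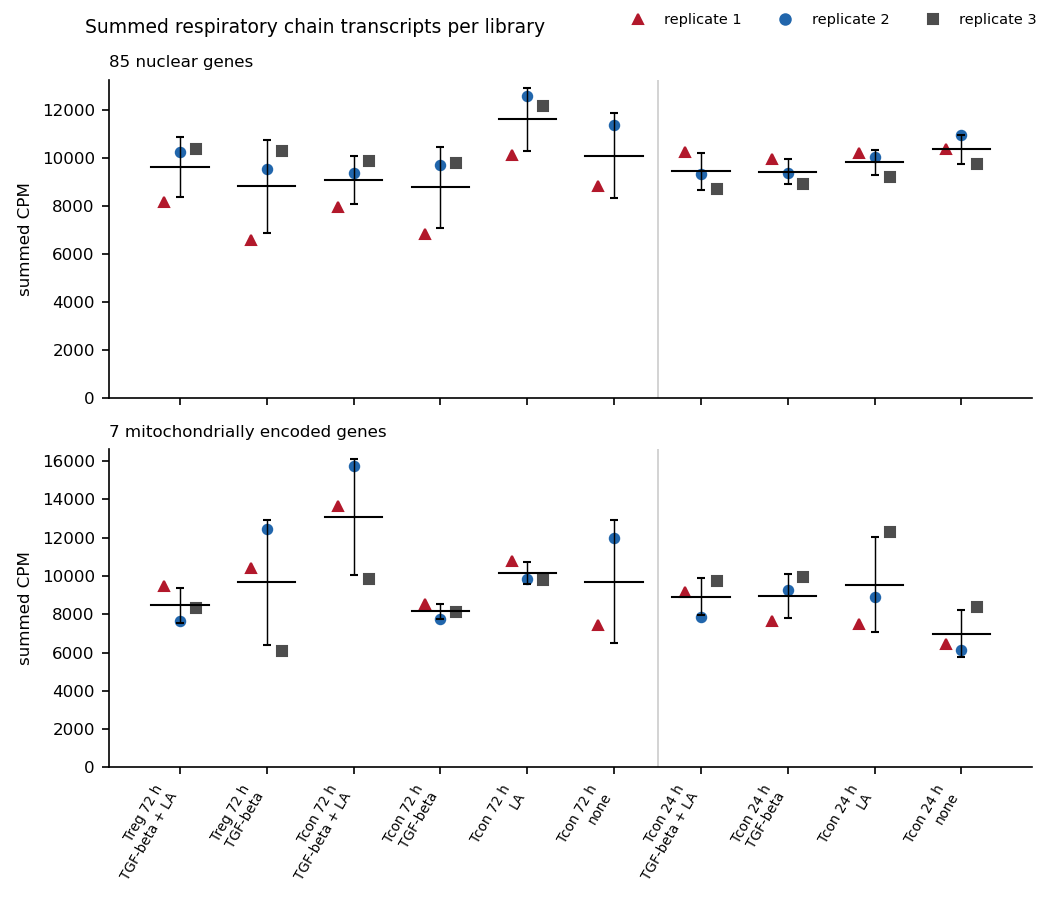
Summed CPM of the 85 nuclear genes (top) and the 7 mitochondrially encoded genes (bottom) in each of 29 libraries; bars are group means, error bars SD (n = 3, or 2 in Tcon at 72 h with no addition). In all 6 groups at 72 h the replicate 1 library has the lowest nuclear sum, and the mitochondrial sum peaks at 15776 CPM in Tcon at 72 h with TGF-beta and LA.

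At 72 h the replicate 1 libraries stood apart for the nuclear genes. Each of the 6 had the lowest nuclear sum of its group, and 66 of the 85 nuclear genes were lowest in replicate 1 in all 6 groups, while 0 of the 7 mitochondrially encoded genes were. Only Cox6a2, Cox7a2l and Ndufa6 were highest in replicate 1 in all 6 groups. Over all genes tested, replicate 1 libraries of 72 h also deviated together between groups (correlation 0.526 to 0.772). The share of all genes lowest in replicate 1 is not given here, so the shift is not shown to be particular to the chain. The 6 libraries share the male source mice per the labels, and no library at 72 h was replicate 1 and female, so sex and replicate number cannot be told apart. At 24 h replicate 1 was also male and was not the lowest. Leaving it out there changed the mean nuclear sum from 9455.4 to 9047.1 CPM with TGF-beta and LA. The change was from 9438.6 to 9164.1 CPM with TGF-beta and from 9834 to 9648.1 CPM with LA. With neither addition the mean stayed at 10369 CPM, and the part of sex was not tested. The shift widens the spread within groups, and results at 72 h that depend on it are given below also without these 6 libraries, and with the replicate number as a block in the fit.

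TGF-beta is the cytokine used to induce Foxp3 in culture, and at 72 h some nuclear respiratory chain genes were called lower in Tcon exposed to it. With LA in both media, 24 of the 85 nuclear genes were called lower and 4 higher (edgeR quasi-likelihood test, Benjamini-Hochberg adjusted p below 0.05 over 14375 genes). Across all genes tested 45% were called in this comparison, 22.5% in each direction, so the genes of the chain were called no more often than other genes (32.9% of the nuclear ones), and their calls were unevenly split. The 24 of 85 called lower lie near the 22.5% of all genes, and the 4 called higher lie below it. The median log2 fold change was -0.28 over the 85 nuclear genes, with 74 negative, against -0.02 over all genes tested. The replicate block raised this to 54 nuclear genes lower and 5 higher, where 60% of all genes were called. Of the 4 called higher, Cox4i2 and Cox7a1 had met the minimum only through TGF-beta. The count over all 92 genes was 29, and 51 without the 6 replicate 1 libraries, a fit whose share of all genes called is not given here. It was 16 without replicate 1 of Tcon with TGF-beta and LA, 18 without replicate 2 of Tcon with LA and 16 without replicate 3 of Tcon with LA. The 13 genes called in every fit that left out 1 library were Ndufa7, Ndufab1, Ndufb6, Ndufb9, Ndufc2, Ndufaf2, Ndufaf3, Uqcrc2, Uqcrq, Cox4i1, Cox4i2, Atp5g1 and mt-Nd6. The place of Cox4i2 among them rests on a gene selected through TGF-beta. Of 7 markers of CD8 T and NK cells 5 could be tested, and 2 of them, Cd8a and Klrd1, were called higher with TGF-beta in both media. Their sum was 110.4 to 141 CPM in Tcon with TGF-beta and LA, against 47.1 to 105 CPM with LA, and 107 to 117 CPM with TGF-beta, against 54.5 and 127 CPM with neither. Cd8b1, the other CD8 gene tested, was not called, at -0.02 with LA and -0.52 without. Ncr1, a defining NK marker, was at 0 in 15 of the 29 libraries, and the part of such cells in the results was not tested.

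Without LA in either medium, 5 nuclear genes were called lower and 2 higher with TGF-beta at 72 h, with 24.5% of all genes called (12.7% higher and 11.7% lower) and 8.24% of the nuclear ones. The 5 of 85 called lower lie below the 11.7% of all genes. The median over the nuclear genes was -0.15, with 65 of 85 negative, against -0.03 over all genes. A fit with the block called 42 lower and 6 higher, where 45.4% of all genes were called. Without the 6 replicate 1 libraries the group with neither addition holds 1 library, so no count is given for that fit. The count of 7 became 2 without replicate 1 of Tcon with TGF-beta, 4 without its replicate 2, and 1 without replicate 2 of Tcon with neither addition, which leaves that group with 1 library. With only these 2 groups in the fit it was 0. All 7 genes were also called in the same direction in the presence of LA (24.1% of the 29 called there). The 2 comparisons share no library, but they come from 1 fit and are not independent. Replicate 1 libraries deviated together between Tcon with LA and with neither addition (correlation 0.723). They also did so between Tcon with TGF-beta and LA and with TGF-beta (0.57). The share of all genes called the same way in both media is not given here.

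**Figure D2:**
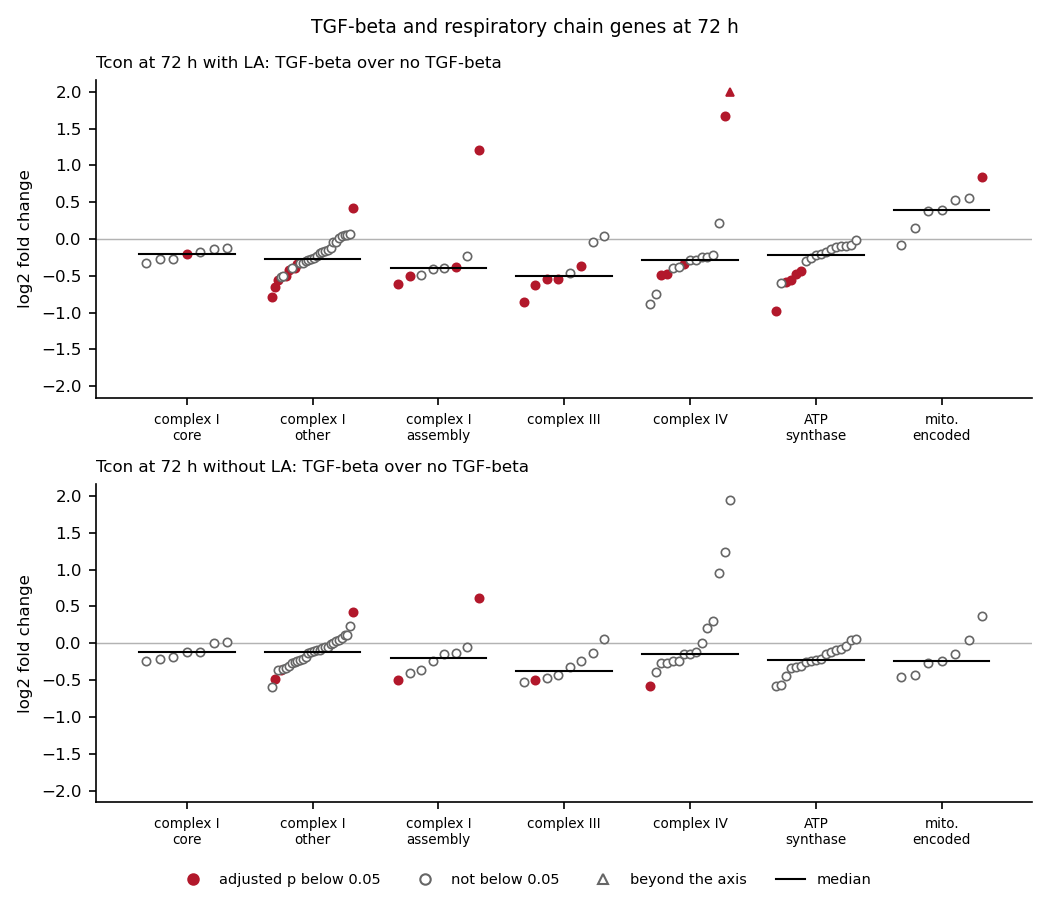
Log2 fold change of each respiratory chain gene by role in Tcon at 72 h, TGF-beta over no TGF-beta, with LA in both media (top) and without LA (bottom); filled points have an edgeR adjusted p below 0.05, triangles lie beyond the axis and bars are medians. With LA, complex III has the lowest median (-0.50) and 5 of its 8 genes called lower.

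Core subunits of complex I carry its redox centres. Without LA edgeR called 0 of the 7 core subunits and 0 had an unadjusted p below 0.05, while the block called 3. Their medians were -0.20 with and -0.12 without LA.

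Of the other 30 subunits of complex I, 7 were called lower and 1 higher with LA, and 2 lower and 1 higher without. Ndufab1, the mitochondrial acyl carrier protein that is also a complex I subunit, had 19.1, 21.3 and 21.6 CPM in Tcon with TGF-beta and LA, against 27.6, 36.2 and 33.2 CPM in Tcon with LA. The groups did not overlap, and the log2 fold change was -0.65 ± 0.14 (edgeR adjusted p = 0.000714). Without LA it had 15.5, 19.4 and 22.2 CPM with TGF-beta, against 21.6 and 31.6 CPM without. There the groups overlapped, and the change of -0.48 ± 0.16 (edgeR adjusted p = 0.0267) was no longer called without replicate 1 or 2 of the TGF-beta group (-0.35 and -0.49) or replicate 2 of the other (-0.18). Ndufa12 was called lower with LA, at -0.78 ± 0.25 (edgeR adjusted p = 0.0145), against -0.59 ± 0.28 (adjusted p = 0.129) without. The difference between the media was not called at 72 h (below). It lost the call without replicate 1 of Tcon with TGF-beta and LA (-0.63) and without replicate 2 or 3 of Tcon with LA (-0.69 and -0.66).

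Ndufv3, an accessory subunit of the NADH-oxidising arm of complex I, moved the other way. It had 150.5, 112 and 106 CPM in Tcon with TGF-beta and LA, against 102, 86.3 and 85.6 CPM with LA, and the groups did not overlap. Without LA it had 116, 123 and 108 CPM with TGF-beta, against 93.1 and 78.6 CPM with neither. The log2 fold change was 0.43 ± 0.11 with LA (edgeR adjusted p = 0.00333) and 0.43 ± 0.13 without (edgeR adjusted p = 0.0148). The call with LA was lost without replicate 1 of Tcon with TGF-beta and LA (0.25), and that without LA without replicate 2 of either group (0.31 without the neither-addition library and 0.38 without the TGF-beta library).

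The 8 assembly factors held the clearest opposite pair. Ndufaf3, which acts early in the assembly of complex I together with Ndufaf4, had 15.6, 15.7 and 16.1 CPM in Tcon with TGF-beta and LA, against 5.80, 7.30 and 7.27 CPM in Tcon with LA. Each library with TGF-beta was far above every library without it, and the log2 fold change was 1.21 ± 0.15 (edgeR adjusted p = 1.05e-06). Without LA it had 9.77, 12.8 and 11.5 CPM with TGF-beta, against 7.10 and 7.75 CPM with neither, a change of 0.61 ± 0.17 (edgeR adjusted p = 0.0115). That call was lost without replicate 1 of the group with neither addition (0.57) or replicate 2 of the TGF-beta group (0.52). Ndufaf2, a late assembly factor, had 9.65, 12.2 and 13.6 CPM in Tcon with TGF-beta and LA, against 17.8, 18.8 and 17.5 CPM with LA. It was lower, at -0.61 ± 0.14 with LA (edgeR adjusted p = 0.00149) and -0.50 ± 0.16 without (edgeR adjusted p = 0.0237), and its counts carry the shared sequence given above. The call without LA was lost without replicate 1 of either group (-0.39 and -0.52) and without replicate 2 of the group with neither (-0.46). Ndufaf1 and Ndufaf5 were also called lower with LA, at -0.37 and -0.50.

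Complex III passes electrons from ubiquinol to cytochrome c, and 5 of its 8 genes were called lower with LA. Uqcrq, one of its small subunits, had 85.1, 95.7 and 102 CPM in Tcon with TGF-beta and LA, against 166, 168 and 175 CPM in Tcon with LA. The groups were far apart, with a log2 fold change of -0.85 ± 0.14 (edgeR adjusted p = 4.98e-05). Without LA it had 71.1, 106 and 105 CPM with TGF-beta, against 135 and 131 CPM with neither, at -0.50 ± 0.16 (edgeR adjusted p = 0.0237). That call was lost without replicate 1 of the TGF-beta group (-0.34) and without either library with neither addition (-0.46 and -0.53). The core proteins Uqcrc1 and Uqcrc2 were called lower with LA, at -0.54 and -0.37, as were the small subunits Uqcrb (-0.54) and Uqcr10 (-0.63). Uqcr10 lost the call without replicate 1 of Tcon with TGF-beta and LA (-0.47) and without replicate 2 or 3 of Tcon with LA (-0.53 and -0.56). In both media the median over the 8 genes was the lowest of the nuclear roles, at -0.50 with LA and -0.37 without.

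In complex IV, the oxygen-consuming complex, 3 of 15 genes were called lower and 2 higher with LA. Cox4i1, the general isoform of subunit 4, had 292, 309 and 305 CPM in Tcon with TGF-beta and LA, against 355, 393 and 398 CPM with LA, and a log2 fold change of -0.34 ± 0.10 (edgeR adjusted p = 0.00582). Cox8a fell in both media, at -0.48 with LA and -0.59 ± 0.20 without (edgeR adjusted p = 0.0362). Cox7a2, the general isoform of subunit 7a, was called lower with LA (-0.48). The 2 genes called higher were Cox4i2 and Cox7a1, which met the minimum only through TGF-beta and are described with the other isoforms below. Without LA the call of Cox8a was lost without replicate 1 or 3 of the TGF-beta group (-0.45 and -0.57) or replicate 2 of the other (-0.28), and the call of Cox7a2 with LA was lost in 4 of 6 fits that left out 1 library.

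Of the 17 ATP synthase genes, 5 were called with LA, each lower, and all 17 had negative fold changes. Atp5g1, 1 of the genes for the c subunit of the rotor ring, had 29.8, 32.9 and 39.9 CPM in Tcon with TGF-beta and LA, against 58.6, 71.0 and 72.6 CPM with LA. No library with TGF-beta reached the lowest without it, and the log2 fold change of -0.98 ± 0.21 (edgeR adjusted p = 0.00049) was the largest fall of any nuclear gene of the chain in this comparison. Without LA Atp5g1 was at -0.57 ± 0.23 (edgeR adjusted p = 0.0681). The catalytic subunit gene Atp5b was lower, at -0.58, and so was Atp5o, at -0.43. Atpif1, which encodes the inhibitor protein of ATP synthase and lies outside the prefixes, averaged 58.3 ± 11.2 CPM in Tcon with TGF-beta and LA and 98.9 ± 15.6 CPM in Tcon with LA (SD, n = 3 each), at -0.77 ± 0.18 (edgeR adjusted p = 0.0018).

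Most mitochondrially encoded genes had the opposite sign. With LA, 6 of the 7 had positive fold changes under TGF-beta (median 0.39), and 1 was called, mt-Nd6, the complex I subunit encoded on the opposite strand from the others. mt-Nd6 had 47.1, 71.1 and 52.6 CPM in Tcon with TGF-beta and LA, against 32.7, 28.6 and 34.0 CPM with LA, a log2 fold change of 0.84 ± 0.20 (edgeR adjusted p = 0.00187). The block also called mt-Co1 (0.53, adjusted p = 0.00736) and mt-Nd5 (0.56, adjusted p = 0.028) higher. Without LA edgeR called 0 of the 7, 0 had an unadjusted p below 0.05 and the block called 0, and the median was -0.24. The sources used here do not give the strand setting of the counting, so RNA of the opposite strand could be included in the counts of mt-Nd6.

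Promoters of 4 genes with unlike responses are shown for their sequence, as 250 bases before and 50 after the start from RefSeq on GRCm38.p6. Cox8a was called lower with TGF-beta at 72 h in both media, Ndufaf3 and Ndufv3 higher in both, and Ndufaf4 was lower at 72 h than at 24 h in all 4 media (below). Capitals mark the motifs searched, which were CGCATGCG (the core bound by NRF1), CCGGAAG (the core bound by ETS factors such as GABPA), AAGATGGCG (bound by YY1) and TCAAGGTCA (bound by ESRRA), on both strands.
Cox8a, chr19:7217567-7217866, minus strand, with the ETS core on the opposite strand at -5 and 33 from the start: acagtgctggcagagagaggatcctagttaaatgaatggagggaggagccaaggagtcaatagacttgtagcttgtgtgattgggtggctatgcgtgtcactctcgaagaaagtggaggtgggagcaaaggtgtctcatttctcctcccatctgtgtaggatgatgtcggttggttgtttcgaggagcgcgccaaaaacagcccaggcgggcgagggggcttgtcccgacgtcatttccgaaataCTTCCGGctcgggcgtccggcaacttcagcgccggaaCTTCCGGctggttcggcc
Ndufaf4, chr4:24897833-24898132, plus strand, with the NRF1 core at -112: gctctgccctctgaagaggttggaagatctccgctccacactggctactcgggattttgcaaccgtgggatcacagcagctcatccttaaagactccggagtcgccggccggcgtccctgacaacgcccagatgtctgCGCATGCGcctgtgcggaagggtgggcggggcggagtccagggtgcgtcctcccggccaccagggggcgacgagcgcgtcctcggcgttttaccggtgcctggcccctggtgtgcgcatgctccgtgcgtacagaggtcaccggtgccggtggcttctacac
Ndufaf3, chr9:108567387-108567686, minus strand, with none of the motifs: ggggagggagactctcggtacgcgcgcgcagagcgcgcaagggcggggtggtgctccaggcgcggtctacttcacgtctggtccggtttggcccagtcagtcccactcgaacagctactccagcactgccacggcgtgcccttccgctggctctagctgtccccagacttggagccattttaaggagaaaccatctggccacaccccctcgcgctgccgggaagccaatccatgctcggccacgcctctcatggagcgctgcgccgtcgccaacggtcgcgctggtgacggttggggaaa
Ndufv3, chr17:31519865-31520164, plus strand, with none of the motifs: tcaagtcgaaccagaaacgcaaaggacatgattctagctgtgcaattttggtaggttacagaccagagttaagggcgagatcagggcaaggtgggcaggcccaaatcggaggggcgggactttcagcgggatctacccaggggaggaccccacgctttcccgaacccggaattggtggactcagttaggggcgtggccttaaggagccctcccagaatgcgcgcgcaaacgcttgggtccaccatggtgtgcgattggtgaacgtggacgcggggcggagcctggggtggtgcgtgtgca

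Promoters were found for 71 of the 85 nuclear genes. The NRF1 core was in 11 of them (15.5%), against 2.07% of 27025 genes with a promoter in the table, and the ETS core in 16 (22.5%), against 9.93%. The YY1 letters were in 8 (11.3%), against 1.64%, and the ESRRA letters in 1 (1.41%), against 0.466%. At least 1 of the motifs was in 29 of the 71 (40.8%), against 13.2% of all genes. Of the 5 genes called lower with TGF-beta at 72 h in both media, only Cox8a had a match. Ndufa7, Ndufab1 and Ndufaf2 had none, like Ndufaf3 and Ndufv3, and for Uqcrq no promoter was found. Whether a motif goes with a direction was not tested. These are letter matches only, and windows without a match may still hold other forms of a site.

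At 24 h few genes of the chain were called with TGF-beta. Without LA, 0 of the 92 genes were called by edgeR, where 11.3% of all genes were (7.95% higher and 3.35% lower), 5 had an unadjusted p below 0.05 and DESeq2 called 1. The smallest p-values belonged to Ndufs4, a complex I subunit (-0.23), and Ndufv3 (0.27). The block called 19, 2 nuclear genes higher and 16 lower and mt-Cytb higher, where 31.7% of all genes were called. With LA 1 gene was called, where 12.4% of all genes were (8.06% higher and 4.38% lower). This was Cox7a2l, the supercomplex assembly factor also known as SCAF1, which had 59.0, 59.1 and 60.8 CPM with TGF-beta and LA, against 43.2, 42.4 and 42.9 CPM with LA. The 2 groups were tight and did not overlap, at 0.48 ± 0.16 (edgeR adjusted p = 0.046), but the call was lost in each of the 6 fits that left out 1 library (0.46 to 0.48) and with DESeq2. The block called 10 genes with LA, 3 higher and 7 lower, where 32.4% of all genes were called.

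A test of whether the response to TGF-beta without LA differed between 72 h and 24 h called 0 of the 92 genes with edgeR, where 5.72% of all genes were called (2.39% higher and 3.33% lower), and 0 with DESeq2, and 2 had an unadjusted p below 0.05. With the replicate block it called 7 genes, where 19.4% of all genes were called: Ndufa12, Ndufc1, Uqcr11, Cox8a, Atp5g1, Atp5g3 and mt-Cytb.

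Between 24 and 72 h of activation, some genes of complex IV rose and some assembly factors of complex I fell in Tcon. Of the 12 complex IV genes other than Cox4i2, Cox6a2 and Cox7a1, 4 were called higher with neither addition, 6 with LA, 2 with TGF-beta and 1 with TGF-beta and LA by edgeR, and 0 lower in any medium. Cox4i2, Cox6a2 and Cox7a1 met the minimum only through 72 h, and 2, 2, 3 and 3 of them were called higher. Of the 8 assembly factors, 2, 2, 4 and 3 were called lower in the same order of media, and every one that was called was lower. Over all 92 genes 16, 24, 24 and 19 were called, where 45.5, 46.6, 52.8 and 47.4% of all genes were called, and the shares of the 92 genes were lower in each medium. The share of all genes called higher was 27.1, 26.5, 28 and 24.4%, and of those called lower 18.4, 20.1, 24.8 and 23%. The rises among the 12 complex IV genes lie near this share with neither addition, above it with LA and below it in both media with TGF-beta. The falls among the 8 assembly factors lie near theirs without TGF-beta and above it with TGF-beta. No test over a role was made. The split of the nuclear genes differed by medium, with 7 higher and 6 lower with neither addition, 21 and 2 with LA, 7 and 13 with TGF-beta, and 6 and 10 with TGF-beta and LA. Without Cox4i2, Cox6a2 and Cox7a1 the numbers higher were 5, 19, 4 and 3. The difference between these splits was not tested. Without the 6 replicate 1 libraries of 72 h, 41 of the genes were called with LA and 36 with TGF-beta and LA, with no share of all genes given beside them. The counts became 5 without replicate 1 at 72 h with neither addition, 14 without that of TGF-beta and 10 without that of TGF-beta and LA. The call held in every fit that left out 1 library for 1, 13, 10 and 7 genes in the same order of media. Genes that met the minimum only through 72 h were among these. They were Cox6a2 with LA, Cox4i2, Cox6a2 and Cox7a1 with TGF-beta, and Cox4i2 and Cox7a1 with TGF-beta and LA. The summed markers of CD8 T and NK cells were also higher at 72 h in each medium, without overlap, for example 47.1 to 105 CPM at 72 h with LA, against 28.9 to 30.7 CPM at 24 h with LA. Nkg7 held most of this sum, with a mean of 58.8 of 73.0 CPM at 72 h with LA. Of the 5 tested, 2, 2, 3 and 4 were called higher. Cd8a and Cd8b1 had negative fold changes with neither addition (-1.41 and -0.48) and with LA (-1.31 and -0.52), not called. They were positive with TGF-beta (4.55 and 0.26) and with TGF-beta and LA (5.27 and 0.28), and of these only Cd8a was called. The part of these markers in the results was not tested.

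**Figure D3:**
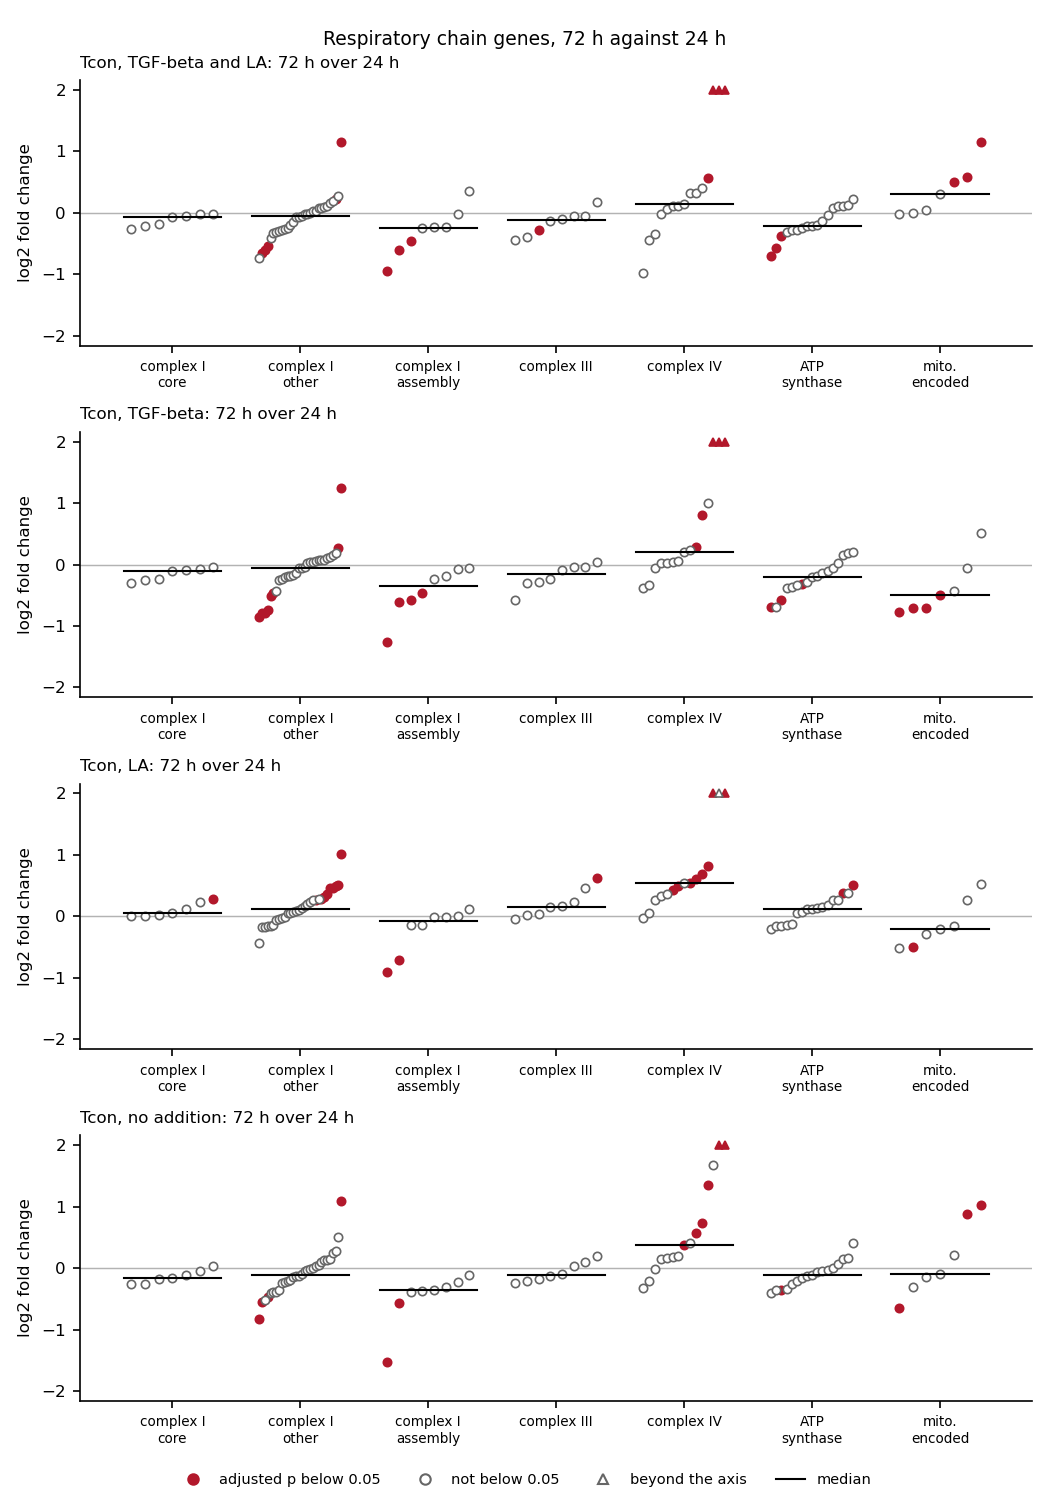
Log2 fold change of each respiratory chain gene by role in Tcon, 72 h over 24 h, in the 4 media; filled points have an edgeR adjusted p below 0.05, triangles lie beyond the axis and bars are medians. The complex IV points beyond the axis are Cox4i2, Cox6a2 and Cox7a1, which met the minimum only through 72 h; the other 12 complex IV genes have 1 to 6 called rises by medium.

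Ndufv3 and Cox7a2l were called higher in all 4 media. So were Cox6a2 and Cox7a1, which had at most 2 and 5 counts in a library at 24 h, so a lower level at 72 h could not have been seen for them. Ndufv3 lay between 36.2 and 57.8 CPM in the 12 libraries at 24 h and between 78.6 and 150.5 CPM in the 11 Tcon libraries at 72 h, so the times did not overlap. Its log2 fold change was 1.09 ± 0.12 with neither addition, 1.02 ± 0.11 with LA, 1.25 ± 0.11 with TGF-beta and 1.15 ± 0.11 with TGF-beta and LA, and all 4 calls held in every fit that left out 1 library. Cox7a2l rose by 0.74 ± 0.17, 0.82 ± 0.16, 0.81 ± 0.16 and 0.56 ± 0.15 in the same order. The call was lost without the replicate 1 library of 72 h with neither addition (0.44) and with TGF-beta and LA (0.37), and Cox7a2l is 1 of the 3 genes that were highest in replicate 1 in all groups at 72 h.

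Cox4i1 rose in 3 media, by 0.37 ± 0.11 with neither addition (edgeR adjusted p = 0.00678), 0.55 ± 0.10 with LA (5.87e-05) and 0.28 ± 0.10 with TGF-beta (0.0153). It had 355, 393 and 398 CPM at 72 h with LA, against 270.3, 277 and 238 CPM at 24 h with LA, and the times did not overlap. The call with neither addition was lost without replicate 2 of 72 h (0.29), and that with TGF-beta without replicate 3 of 24 h (0.26) or replicate 2 or 3 of 72 h (0.24 and 0.25). Cox6a1, the general isoform of subunit 6a, was called higher with LA, at 0.60 ± 0.20 (edgeR adjusted p = 0.0161), and Cox7a2 likewise at 0.49 ± 0.19 (edgeR adjusted p = 0.0362). With LA, Cox8a (0.69), Uqcrq (0.62), Atp5b (0.52) and Ndufa9 (0.51) were also called higher, and none of these 4 was called with TGF-beta or with TGF-beta and LA. The calls of Cox7a2 and Atp5b with LA were lost in 4 of the 6 fits that left out 1 library.

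Ndufaf4, a partner of Ndufaf3 in complex I assembly, was the only gene called lower in all 4 media. It had 18.7 and 48.4 CPM at 72 h with neither addition, against 97.6, 100.2 and 94.5 CPM at 24 h. With LA it had 26.5, 59.8 and 49.8 CPM at 72 h, against 90.5, 86.6 and 78.4 CPM at 24 h. With TGF-beta it had 16.4, 34.4 and 40.0 CPM at 72 h, against 74.0, 72.4 and 71.4 CPM at 24 h. In every medium no library at 72 h reached the lowest at 24 h, and the replicate 1 library of 72 h was the lowest. Fold changes on the log2 scale were -1.53 ± 0.37 with neither addition, -0.91 ± 0.32 with LA, -1.26 ± 0.32 with TGF-beta and -0.94 ± 0.32 with TGF-beta and LA. Calls were lost without replicate 1 of 72 h with neither addition (-1.01), with LA (-0.65) and with TGF-beta and LA (-0.80), and without replicate 1 of 24 h with LA (-0.86).

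Ndufaf3 was called lower at 72 h in the 2 media without TGF-beta, at -0.57 ± 0.17 with neither addition (edgeR adjusted p = 0.00968) and -0.71 ± 0.15 with LA (0.000603). It was at -0.06 ± 0.15 with TGF-beta and 0.35 ± 0.15 with TGF-beta and LA. Ndufab1 was lower, at -0.55 with neither addition, -0.78 with TGF-beta and -0.54 with TGF-beta and LA, and was at -0.14 with LA. Ndufa5, a subunit of the arm of complex I that reaches into the matrix, and Atp5h, a stalk subunit of ATP synthase, were called lower in the same 3 media. Ndufa5 was at -0.83, -0.85 and -0.65, and Atp5h at -0.36, -0.32 and -0.38. With TGF-beta, with and without LA, Atp5g1 was also lower, at -0.70 and -0.69. With neither addition the calls of Ndufaf3, Ndufab1, Ndufa5 and Atp5h were lost without replicate 1 of 72 h (-0.51, -0.30, -0.50 and -0.26), and the call of Atp5h was lost in 2 or more of the fits that left out 1 library in each medium.

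Atpif1 had the same direction in all media. It averaged 76.8 ± 10.9 CPM at 72 h with neither addition (SD, n = 2) and 16.6 ± 1.53 CPM at 24 h (SD, n = 3), and 98.9 ± 15.6 CPM at 72 h with LA and 20.8 ± 2.76 CPM at 24 h (SD, n = 3 each). The log2 fold change was 2.21 with neither addition, 2.25 with LA, 1.64 with TGF-beta and 1.44 with TGF-beta and LA, with edgeR adjusted p between 2.9e-09 and 1.6e-06. Both values with TGF-beta lay below both without it, as did the level of Atpif1 at 72 h. Without LA the rise with TGF-beta differed from that with neither addition by -0.56 ± 0.29, which was not called (edgeR adjusted p = 0.31). With LA this difference was not tested.

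The isoforms of complex IV known from muscle, lung and testis had few counts, and most of them were from 72 h. Cox6a2, the heart and skeletal muscle isoform of subunit 6a, had 748 counts over the 17 libraries at 72 h and 6 over the 12 at 24 h. Cox4i2, an isoform of subunit 4 known from lung and from hypoxia, had 142 counts at 72 h and 7 at 24 h. Cox7a1, the muscle isoform of subunit 7a, had 337 at 72 h and 27 at 24 h. Cox6b2, the testis isoform of subunit 6b, was the only one with many counts at 24 h, with 222 at 72 h and 107 at 24 h. The general isoforms remained far above them, as the levels of Cox4i1 above show.

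In Cox6a2 the replicate 1 libraries of 72 h held most of the counts. It had 6.94, 0.513 and 1.10 CPM in Tcon at 72 h with TGF-beta and LA, 10.9, 3.12 and 2.61 CPM with TGF-beta, 10.2, 1.37 and 3.18 CPM with LA and 4.36 and 1.38 CPM with neither, against 0 to 0.167 CPM in all 12 libraries at 24 h. Every library at 72 h was above every library at 24 h. The ratio of summed counts per depth was 34.2 with neither addition (69 against 3 counts, 95% interval 11.2 to 170) and 193 with TGF-beta (206 against 1, 34.2 to 7650). These intervals cover counting error only. The edgeR calls of Cox6a2 were lost without replicate 1 of 72 h with neither addition (3.92) and with TGF-beta and LA (4.49), on the log2 scale of the fit.

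Cox4i2 and Cox7a1 were called higher with TGF-beta in the presence of LA and were not called in its absence. Both met the minimum only through libraries with TGF-beta, so the selection favoured a rise and their values are a description. Cox4i2 had 1.36, 0.513 and 0.235 CPM in Tcon at 72 h with TGF-beta and LA, against 0.0906, 0.0723 and 0 CPM with LA. These are 25 against 2 counts, a ratio of 13.2 (95% interval 3.3 to 115, counting error only). Without LA it had 1.56, 1.17 and 0.633 CPM with TGF-beta, against 0.257 and 0.307 CPM with neither, or 42 against 7 counts, a ratio of 3.94 (1.76 to 10.4). In Treg it had 0.816, 0.590 and 0.273 CPM with TGF-beta and LA and 1.67, 0.958 and 0.868 CPM with TGF-beta. Cox7a1 had 70 counts in Tcon with TGF-beta and LA and 23 in Tcon with LA (ratio 3.22, 95% interval 1.99 to 5.41). Its call was lost without replicate 1 of Tcon with TGF-beta and LA (1.29 on the log2 scale of the fit) and without the 6 replicate 1 libraries (1.04). Without LA the counts of Cox7a1 were 80 and 22, a ratio of 2.39 (1.48 to 4.02).

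**Figure D4:**
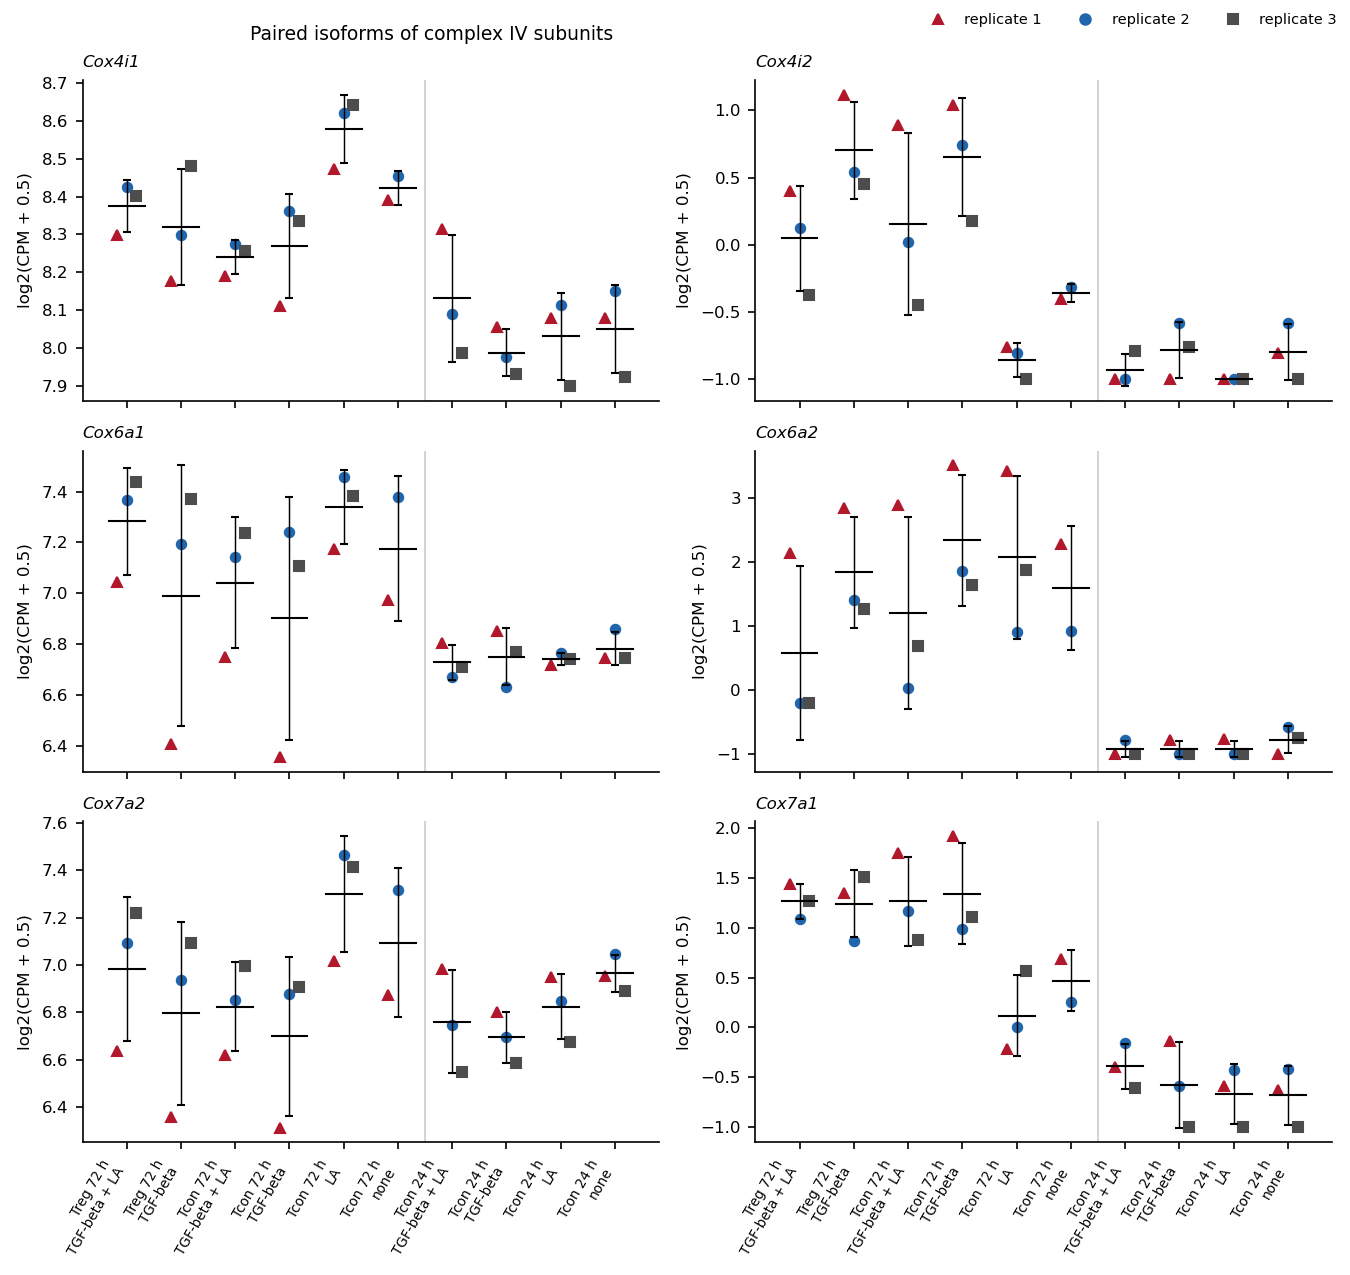
Log2(CPM + 0.5) of 3 pairs of isoforms of complex IV subunits, the general isoform on the left and the tissue-restricted one on the right, in every library; bars are group means, error bars SD. Cox4i2 is near its floor at 24 h and at 72 h without TGF-beta, and Cox6a2 is highest in replicate 1 at 72 h.

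The mitochondrially encoded genes split between 24 and 72 h. With neither addition mt-Co1 had 3289 and 4535 CPM at 72 h, against 1761, 1701 and 2306 CPM at 24 h, and mt-Cytb 1704 and 2783 CPM at 72 h, against 1101, 1027 and 1533 CPM at 24 h. Neither gene overlapped between the times, and both were called higher, mt-Co1 with an edgeR adjusted p of 0.00314 and mt-Cytb by 0.88 ± 0.25 (edgeR adjusted p = 0.0072). Both calls were lost without replicate 2 of 72 h (0.73 and 0.44), which leaves 1 library there. With TGF-beta and LA mt-Co1 was higher at 72 h by 1.16 ± 0.24 (edgeR adjusted p = 0.000418), a call that held in every fit that left out 1 library, and mt-Cytb by 0.58 ± 0.23 (edgeR adjusted p = 0.0424), which did not.

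The complex I subunits did not follow them. With TGF-beta mt-Nd1 had 1007, 1055 and 1180 CPM at 72 h, against 1638, 1925 and 1966 CPM at 24 h, without overlap. It was lower, at -0.77 ± 0.25 (edgeR adjusted p = 0.013), as were mt-Nd2 and mt-Nd5, at -0.70 each, while mt-Co1 was at 0.51 ± 0.24 (edgeR adjusted p = 0.0795) and mt-Cytb at -0.05. mt-Nd6 was lower with neither addition (-0.65), with LA (-0.50) and with TGF-beta (-0.49), and higher with TGF-beta and LA (0.51), the only gene of the 92 called in both directions. In all 4 media the mt-Nd6 calls were lost in 2 or more of the fits that left out 1 library, and those of mt-Nd2 and mt-Nd5 in 4 and 2 of 6.

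**Figure D5:**
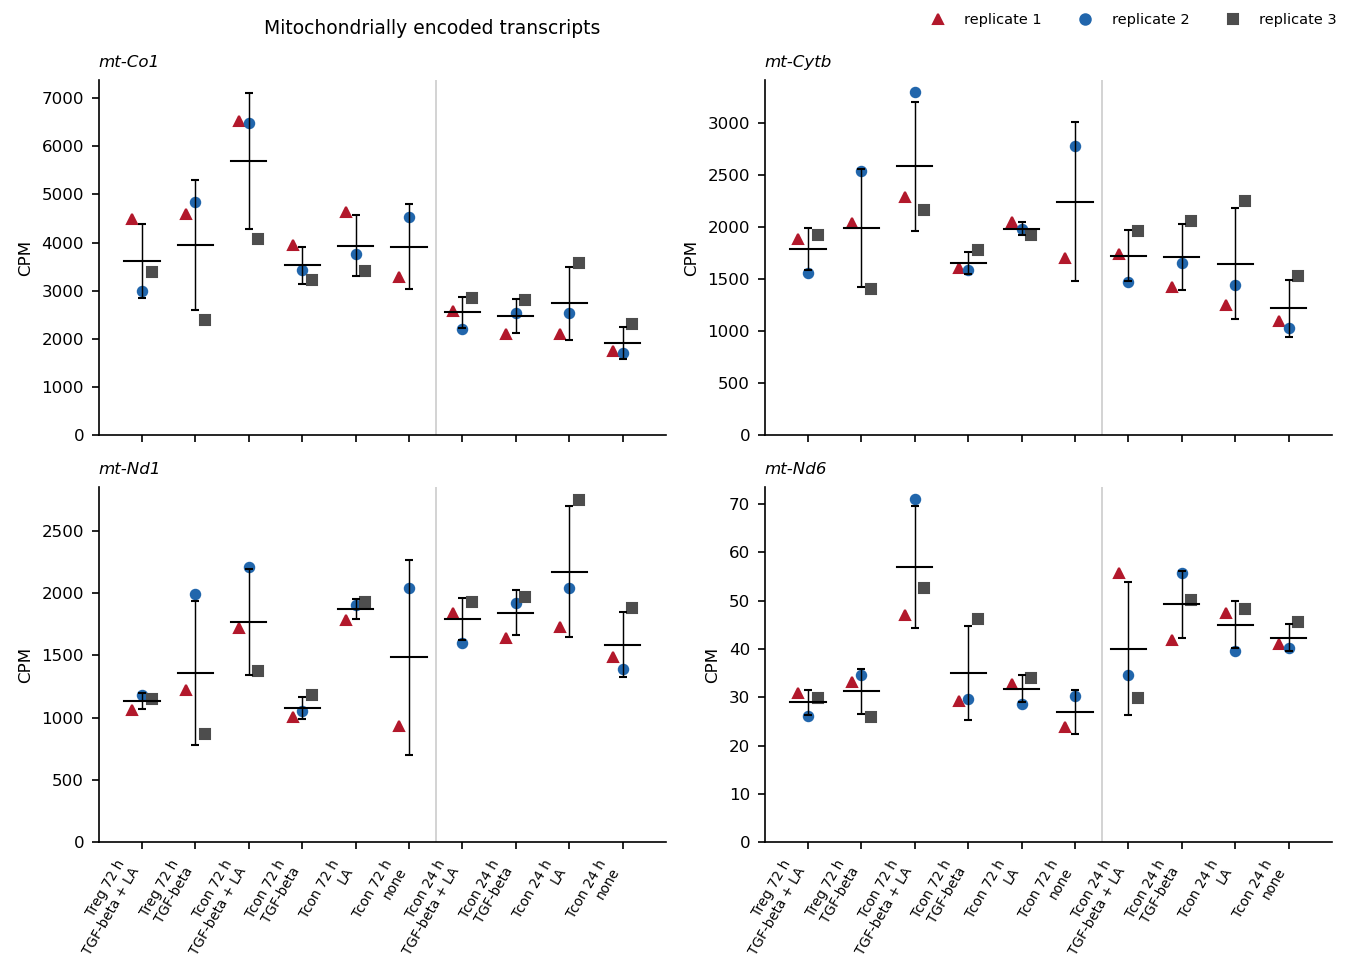
CPM of 4 mitochondrially encoded genes in every library; bars are group means, error bars SD (n = 3, or 2 in Tcon at 72 h with no addition). The mean of mt-Co1 is higher at 72 h than at 24 h in each medium, that of mt-Nd1 is not, and mt-Nd6 is highest in Tcon at 72 h with TGF-beta and LA (47.1 to 71.1 CPM).

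Across the 10 group means of log2 CPM the 7 genes formed pairs that varied together. The correlation was 0.96 between mt-Nd1 and mt-Nd2, 0.92 between mt-Co1 and mt-Cytb and 0.89 between mt-Nd2 and mt-Nd5, and -0.26 between mt-Co1 and mt-Nd1. These describe 10 points that share libraries and depth, and the share of each gene that can be counted uniquely differs as given above.

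LA is the end product of glycolysis that also acidifies the medium. Few genes of the chain were called under it. In Tcon at 24 h without TGF-beta, 0 of the 92 genes were called by edgeR, where 0.0835% of all genes were (0.0765% higher and 0.00696% lower), and 0 by DESeq2, and only mt-Co1 had an unadjusted p below 0.05. mt-Co1 had 2101, 2535 and 3580 CPM with LA, against 1761, 1701 and 2306 CPM without, at 0.51 ± 0.24 (edgeR adjusted p = 0.686). The other mitochondrial fold changes were between 0.09 and 0.45, and the groups overlapped for all 7 genes. With TGF-beta at 24 h, 0 were called by edgeR, where 0.23% of all genes were (0.16% higher and 0.0696% lower), and 0 by DESeq2. Ndufs4 (0.22) and Atp5s (0.41) were the only ones with an unadjusted p below 0.05. The replicate block called 1 there, where 6.7% of all genes were called.

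In Tcon at 72 h without TGF-beta, 0 of the 92 genes were called with LA by edgeR or by DESeq2, where edgeR called 0.0696% of all genes (0.0139% higher and 0.0557% lower). 79 of the 85 nuclear genes had positive fold changes (median 0.17), none of them called, and the group without LA had 2 libraries. The share of all genes with positive fold changes is not given here, so a rise particular to the chain is not shown. The 3 genes with an unadjusted p below 0.05 were Ndufs4 (0.24), Uqcrq (0.35) and Ndufaf6 (0.53). Uqcrq had 166, 168 and 175 CPM with LA, against 135 and 131 CPM without.

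With TGF-beta at 72 h, the mitochondrially encoded genes of Tcon were higher with LA in a way that depended on the fit. All 7 were higher with LA in each of 3 replicate pairs, with log2 fold changes between 0.64 and 0.72, and 6 of the 7 did not overlap between the groups. The shares of all genes that did the same are not given here. The 7 genes were counted in the same libraries and are not 7 separate observations. None was called in the fit without a block, where 2.16% of all genes were called by edgeR (0.744% higher and 1.42% lower), and the smallest adjusted p was 0.075, for mt-Nd6 (0.70 ± 0.20). In all, 0 of the 92 genes were called, 9 had an unadjusted p below 0.05 and DESeq2 called 1. With the replicate block all 7 were called higher, with edgeR adjusted p between 0.00512 (mt-Co1) and 0.0217 (mt-Nd2), where 15.4% of all genes were called. mt-Co1 had 6522, 6490 and 4070 CPM with LA, against 3956, 3426 and 3216 CPM without. The block also called Ndufaf3 higher (0.47, adjusted p = 0.00753) and Cox6b2 and Cox6a2 lower (-1.57 and -0.93, adjusted p = 0.0229 and 0.0181). Without replicate 3 of Tcon with TGF-beta 1 gene was called. Klrd1 was called higher with LA among the 5 tested markers of CD8 T and NK cells, whose sum was 110.4 to 141 CPM with LA, against 107 to 117 CPM without, and its part was not tested.

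In Treg no mitochondrially encoded gene was called under the same contrast. All 7 mitochondrially encoded genes had negative fold changes (-0.32 to -0.11, edgeR adjusted p 0.561 to 0.859), the groups overlapped for each, and the gene was higher with LA in 1 of 3 pairs. A test of whether the LA effect differed between Treg and Tcon called 0 of the 92 genes with edgeR and 0 with DESeq2, 7 had an unadjusted p below 0.05, and edgeR called 0% of all genes. The smallest unadjusted p of a mitochondrial gene there was 0.00553, for mt-Nd5 (-1.03 ± 0.34, edgeR adjusted p = 1). In Treg 1 of the 92 genes was called with LA, where 3.51% of all genes were (1.49% higher and 2.02% lower). This was Cox6b2, with 0.0816, 0.664 and 0.546 CPM with LA, against 2.35, 1.62 and 0.781 CPM without, or 16 against 62 counts. The groups did not overlap and the log2 fold change was -1.86 ± 0.51 (edgeR adjusted p = 0.0448), but the call was lost in 5 of the 6 fits that left out 1 library (-2.35 to -1.38), and without the 6 replicate 1 libraries it was at -0.99 (adjusted p = 0.271). With the replicate block 18 genes were called, 16 higher and 2 lower, where 9.92% of all genes were called higher and 9.8% lower.

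Tests of whether the LA effect depended on TGF-beta called 0 of the 92 genes at 24 h, where 0% of all genes were called by edgeR, and 0 at 72 h, where 0.104% were (0.0278% higher and 0.0765% lower). Unadjusted p-values were below 0.05 for 1 and 2 of the 92, DESeq2 called 0 in both, and with the block Cox6a2 was called at 72 h. Between 72 h and 24 h with TGF-beta the LA effect differed for 0 genes by edgeR, where 0.0278% of all genes were called (0.0139% in each direction), and 0 by DESeq2, and 5 had an unadjusted p below 0.05. The block called mt-Nd6 there (0.99 ± 0.29 and adjusted p = 0.446 without the block, adjusted p = 0.0393 with it), where 3.36% of all genes were called.

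Between Treg and Tcon from the same TGF-beta cultures mt-Nd6 with LA was the 1 call. Without LA 0 of the 92 genes were called by edgeR, where 0.216% of all genes were (0.0626% higher and 0.153% lower), and 0 by DESeq2, and only Ndufaf3 had an unadjusted p below 0.05 (0.33 ± 0.15, edgeR adjusted p = 0.806). With LA 1 gene was called, where 2.55% of all genes were (1.27% higher and 1.27% lower). mt-Nd6 had 30.9, 26.1 and 29.9 CPM in Treg, against 47.1, 71.1 and 52.6 CPM in Tcon. The groups did not overlap and the log2 fold change was -0.97 ± 0.21 (edgeR adjusted p = 0.00985). The call was lost without replicate 2 of Tcon (-0.78) or of Treg (-0.90). The other 6 mitochondrial genes were also lower in Treg in every pair (-0.66 to -0.53, unadjusted p below 0.05, edgeR adjusted p 0.187 to 0.309). The share of all genes lower in every pair is not given here. With the replicate block all 7 were called lower and Ndufa4 and Ndufb2 higher, where 12.7% of all genes were called. This comparison and the LA comparison in Tcon share the libraries of Tcon with TGF-beta and LA, in which the mitochondrial sum was highest.

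The nuclear genes shared a shallow profile over the 10 groups. Their mean log2 CPM was lowest in Tcon at 72 h with TGF-beta (5.66) and highest in Tcon at 72 h with LA (5.97), a range of 0.31. The correlation of a gene with this mean had a median of 0.65 over the 85 genes, and 32 were above 0.7. The genes most like the mean were Atp5o (0.98), Ndufa7 (0.93), Uqcrc1 (0.92) and Ndufc2 (0.92). The 5 genes least like it were Cox4i2 (-0.69), Ndufaf3 (-0.68), Cox7a1 (-0.48), Ndufa6 (-0.41) and Cox7a2l (-0.32), and 9 genes in all were below 0. The 10 points share libraries, and each gene is itself a part of the mean.

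Genes around the chain, from lists of pathway members outside the prefixes, moved as follows in Tcon at 72 h with LA under TGF-beta, where 22.5% of all genes were called in each direction. Of the 4 complex II genes, which link the chain to the citrate cycle, Sdhc and Sdhd were called lower. Of the electron carriers, both Cycs and Cyc1 were called lower, and Cycs, which encodes cytochrome c, was at -0.84 ± 0.23 (edgeR adjusted p = 0.0046). Of 24 assembly factors of complexes III and IV that were tested, 8 were called lower and 2 higher. Of 9 genes of mitochondrial transcription, 3 were called lower, and of 8 of mitochondrial DNA replication 5 lower and 2 higher, with Top1mt, the mitochondrial topoisomerase, at -1.15. Of 16 genes of mitochondrial RNA processing and stability 12 were called lower and 1 higher (median -0.63), with Fastkd2 at -1.10. Of 10 nuclear regulators of the chain only Sp1 was called, and it was higher.

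Between 24 and 72 h the RNA processing genes were called lower 7, 3, 11 and 10 times of 16 with neither addition, LA, TGF-beta, and TGF-beta and LA, and higher 1, 2, 0 and 1 times. Of all genes 18.4, 20.1, 24.8 and 23% were called lower, so the 3 of 16 with LA lie near that share. Fastkd1, a factor that acts on mitochondrial RNA, was lower in all 4 media, at -1.12, -0.82, -1.52 and -1.34. Polrmt, the mitochondrial RNA polymerase, and Tfb2m, which helps it start, were also called lower in all 4. Of the assembly factors of complexes III and IV, Lyrm7 was lower and Cox17, a copper carrier for complex IV, higher in all 4, with Cox17 at 0.69, 0.87, 1.00 and 0.96. Under LA none of these lists had a called gene in any of the 5 comparisons by edgeR.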

How the data were processed

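The submitters' processing notes name STAR 2.7.3a, HTSeq 0.12.4, DESeq2 1.30.1 and the build GRCm39. Libraries were strand-specific polyA libraries read for 65 bases from 1 end, per the labels' protocols. The sources used here do not give the strand setting, the treatment of reads with several matches or the annotation release. The deposited values are raw counts per Ensembl gene, 1 table per library, with 9754511 to 14315313 counts in genes. Symbols and biotypes were matched by identifier to GENCODE vM21 on GRCm38, which named 52081 of 55414 identifiers. Atpif1, Usmg5 and Ndufb1-ps fall outside the prefixes or biotype there.

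All 29 libraries were fitted in 1 model of 10 groups with edgeR 4.0.16 (R 4.3.3) by the quasi-likelihood test, with TMM scaling and filterByExpr (minimum count 10, minimum total 15), which kept 14375 genes. P-values were adjusted over these genes by Benjamini-Hochberg, and called means an adjusted p below 0.05. The 15 comparisons of 2 groups and 5 interactions were tested. Values printed as ± beside a log2 fold change are standard errors. Low counts are also given as ratios of summed counts with exact 95% intervals. The scripts were tested on simulated data. The members and lists were chosen with earlier results of these data known, and no test over a list was made. Named genes were the called mitochondrial ones, up to 6 largest rises and falls per comparison, the 2 smallest p-values where none was called, and a panel of isoforms, with others added after their values were seen. The result of 1 gene is not reported here.

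Libraries with the same replicate number deviated together within a time point (correlation 0.123 to 0.772 in the 9 comparisons with 3 pairs, against at most 0.335 for unlike numbers), so a fit with replicate within time as 6 blocks is given where it changed a call. Between times the correlation was -0.062 to 0.146, so there the numbers are only shared names. Alternatives were RLE scaling, no filter, mitochondrial genes left out of library sizes, only the groups compared, DESeq2 1.42.0, the block, and leaving out single libraries or the 6 replicate 1 libraries of 72 h.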

Additional observations from a re-analysis of the deposited data

How the results depend on the processing

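Counts of respiratory chain genes called kept within 1.5 times the reported count under all other alternatives than these. With the replicate block within each time point the count was 1 for LA at 24 h with TGF-beta, 10 for LA in Tcon at 72 h with TGF-beta, 18 for LA in Treg, 19 and 10 for TGF-beta at 24 h without and with LA, 48 and 62 for TGF-beta at 72 h without and with LA, 9 for Treg against Tcon with LA, 1 for the LA by TGF-beta test at 72 h, 7 for TGF-beta by time and 1 for LA by time. Without the 6 replicate 1 libraries of 72 h it was 1 for LA in Tcon with TGF-beta, 22 and 51 for TGF-beta at 72 h without and with LA, 41 and 36 for time with LA and with TGF-beta and LA, and 1 for TGF-beta by time. With no filter it was 7 for LA in Tcon at 72 h with TGF-beta, 0 for TGF-beta at 24 h with LA, 6 for Treg against Tcon with LA and 1 for TGF-beta by time. With only the groups compared in the fit it was 0 for LA in Treg, 18 and 5 for TGF-beta at 24 h without and with LA, and 0 for TGF-beta at 72 h without LA. DESeq2 gave 1 for LA in Tcon at 72 h with TGF-beta, 1 and 0 for TGF-beta at 24 h without and with LA. RLE scaling, and leaving mitochondrial genes out of library sizes, gave 0 for TGF-beta at 24 h with LA. The share of all genes called is not given for the fits without the 6 replicate 1 libraries, with no filter or with only the groups compared. Their counts are therefore not shown to be particular to the chain, and the cause was not tested in any of these fits.

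Leaving out 1 library at a time gave 0 to 1 for LA in Tcon with TGF-beta, for LA in Treg and for Treg against Tcon with LA, 0 in each for TGF-beta at 24 h with LA, 1 to 8 and 16 to 34 for TGF-beta at 72 h without and with LA, and 5 to 23, 16 to 25, 14 to 25 and 10 to 21 for time with neither addition, LA, TGF-beta, and TGF-beta and LA. A group left with 1 library is assumed to vary like the others. Signs turned only for genes that were not called in that comparison without the block. Over these fits Cox6a2 lay between -2.54 and 0.39 for TGF-beta with LA (0.39 without replicate 1 of Tcon with LA) and between -2.72 and 0.021 for LA in Tcon with TGF-beta (0.021 without replicate 1 of Tcon with TGF-beta). For TGF-beta at 72 h without LA, the highest values came without replicate 2 of the group with neither addition. The ranges were -0.65 to 0.11 for Ndufa5, -0.45 to 0.020 for Atp5a1, -0.49 to 0.081 for Ndufs1, -0.32 to 0.14 for Atp5j2 (0.11 without replicate 1 of the TGF-beta group) and -0.50 to 0.16 for Atp5k. In TGF-beta by time they were -0.57 to 0.20 for Atp5g3 and -0.64 to 0.13 for Uqcr11. Between times a block of the replicate number over all libraries, where numbers are only shared names, gave 18, 28, 30 and 28 calls. No share of all genes is given beside them. Group sums of the nuclear and mitochondrial genes moved by less than the SD between replicates under RLE scaling and with mitochondrial genes left out of library sizes. Leaving out 1 library cannot move the mean of so small a group by as much as its SD, so those fits do not test these sums. Isoforms under 1 CPM, and the group of 2 libraries, limit what these data can show.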
